A study of Mus musculus with 12 samples.

Results

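The methionine cycle and its exit, the transsulfuration pathway, were followed in whole mouse liver through 10 genes: Mat1a, Mat2a and Mat2b, which make or regulate the making of S-adenosylmethionine (SAM), Gnmt and Pemt, which spend it, Ahcy, which clears the product, Bhmt and Bhmt2, which return homocysteine to methionine, and Cbs and Cth, which pass it on to cysteine. The genes were chosen by name, as the Ensembl IDs that carry these symbols in GENCODE release M21. They are 10 of the 54232 gene IDs in the table, and each of the 10 was among the 14168 genes that passed the filter on low counts.

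RNA sequencing was done on livers of male C57BL6/J mice, with an age of 8-week in the labels, from the intragastric model of alcohol-associated steatohepatitis (ASH). The pair-fed group (PF, n = 5) received an isocaloric high-fat liquid diet, and the alcohol-fed group (AF, n = 7) received that diet with ethanol, raised over 8 weeks to 27 g/kg/day, plus a binge of 5 g/kg each week. The regimen also included a solid diet rich in cholesterol and saturated fat. The liquid diet of both groups was high in fat, so neither is a group on ordinary chow throughout. All mice were killed one day after the time of the last binge. Each library came from 1 mouse, no batch is given in the labels, and replicate numbers are those of the labels. Libraries held 24129900 to 28594027 reads on genes in PF and 25099033 to 30578639 in AF livers, and the least counted of the 10 genes, Mat2b, had at least 779 reads in every liver.

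SAM is the methyl donor of the cell, and the liver is the main organ that makes and spends it. Methionine adenosyltransferase joins methionine to adenosine to form SAM, methyltransferases turn SAM into S-adenosylhomocysteine (SAH), SAH hydrolase splits this into adenosine and homocysteine, and homocysteine is either remethylated to methionine or condensed with serine on the way to cysteine and glutathione. The adult liver uses mainly the enzyme encoded by Mat1a, whereas Mat2a encodes the enzyme of extrahepatic tissues and of fetal, regenerating or dedifferentiated liver, and ethanol feeding is known to disturb this cycle.

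Compared to PF, 1 of the 10 genes was higher in AF livers (Mat2a, at 143% of the PF mean) and 3 were lower: Bhmt2 (63.8%), Pemt (64.2%) and Cbs (70.3%). Mat1a, Mat2b, Gnmt, Ahcy, Bhmt and Cth did not pass the test. These calls come from edgeR's quasi-likelihood test with Benjamini-Hochberg adjustment over all genes tested and a threshold of 0.05, on counts, and levels are given as CPM, the reads of a gene per 1e+06 reads of its library after scaling by TMM factors. Many genes differed between the groups, with 39.8% of all genes tested past this threshold, 22.0% higher and 17.8% lower in AF, so that 4 of 10 is close to the background and is no result about these genes as a set. The median log2 fold change was -0.20 over the 10 genes and 0.04 over all genes tested. One of the 10, Bhmt2, had no overlap between the groups, with all AF livers below all PF livers; over all genes tested, 9.49% had this pattern and 8.20% the opposite one. In whole tissue such as this, fewer cells of a type and less RNA per cell cannot be told apart.

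**Figure D1:**
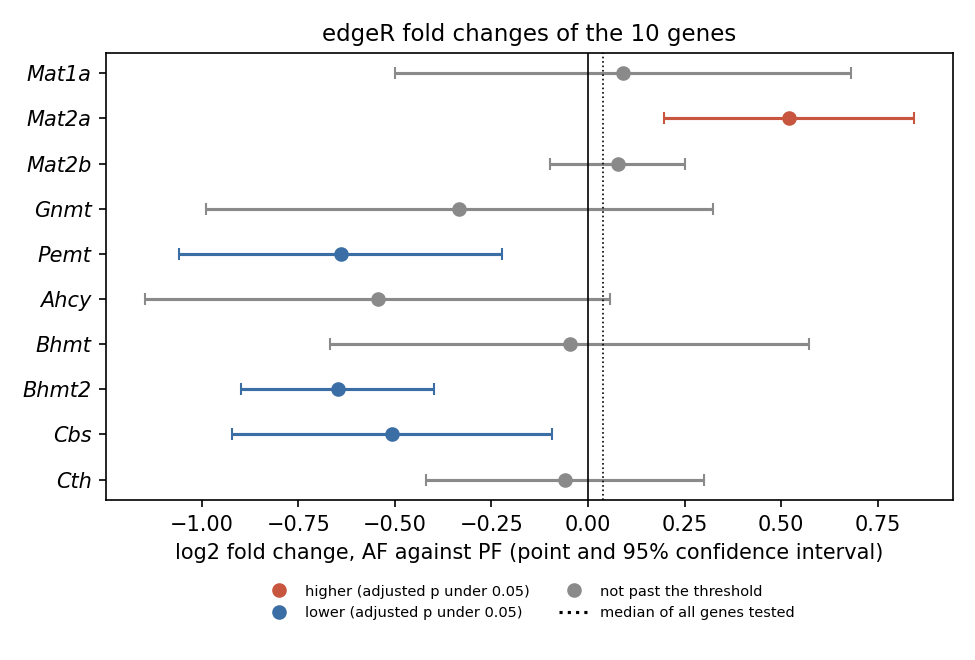
Log2 fold change of each gene in AF against PF livers (n = 7 and 5) from edgeR, with points for the estimate, bars for the 95% confidence interval and a dotted line at the median of all genes tested. Mat2a lies to the right of 0, at 0.52, and the intervals of Bhmt2, Pemt and Cbs lie wholly to the left.

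The balance of calls depended on the scaling of the libraries. The TMM factors of PF livers lay between 0.832 and 0.901 and those of AF livers between 0.880 and 1.36, the highest being that of AF replicate 1. On library totals without these factors, 6458 of all genes tested were higher and 938 lower in AF (87.3% of the calls were higher, compared to 55.3% with TMM), and the median over all genes moved up by 0.36 on the log2 scale. The directions given for Mat2a, Bhmt2, Pemt and Cbs were the same under every scaling tried. Relative to the median of all genes, Mat2a stood at 0.48 with TMM and 0.47 on library totals, Bhmt2 at -0.69 and -0.70, Pemt at -0.68 and -0.72, and Cbs at -0.55 and -0.54. The signs of Bhmt and Cth, neither past the threshold, did flip.

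Mat1a (ENSMUSG00000037798, GRCm38 chr14:41105035-41124412, plus strand) encodes the catalytic subunit of the liver forms of methionine adenosyltransferase. PF replicates 1 to 5 held 4292, 4937, 4717, 4711 and 3826 CPM of Mat1a, and AF replicates 1 to 7 held 2912, 4429, 3253, 4633, 3313, 8776 and 6189 CPM. The PF values lay close together, whereas 3 AF livers were below and 2 above all PF livers. The means, 4497 ± 441 CPM (SD, n = 5) and 4786 ± 2084 CPM (SD, n = 7), differed by a log2 fold change of 0.09 (SE 0.274, 95% CI -0.50 to 0.68), which was not past the threshold (edgeR adjusted p = 0.814). Without AF replicate 6 the value was -0.13, and a fit that gave each library a quality weight (limma-voom) gave -0.075, so no direction can be named for Mat1a.

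Mat2a (ENSMUSG00000053907, GRCm38 chr6:72432799-72439558, minus strand) encodes the catalytic subunit of the form found mainly outside the liver. PF replicates 1 to 5 held 154, 168, 114, 110 and 119 CPM of Mat2a, compared to 178, 174, 167, 162, 219, 258 and 175 CPM in AF replicates 1 to 7. Of the 7 AF livers, 5 were above every PF liver, and replicates 3 and 4 lay just under PF replicate 2. The level rose: PF livers averaged 133 ± 26.3 CPM (SD, n = 5) and AF livers 190 ± 35.3 CPM (SD, n = 7), for a fitted log2 fold change of 0.52 (SE 0.150, 95% CI 0.20 to 0.84, edgeR adjusted p = 0.0153; exact permutation of log2 CPM, two-sided, p = 0.00379). The call held under every setting and with each liver left out in turn, where the highest edgeR adjusted p was 0.0471, without PF replicate 4.

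The Mat2a messenger is known to be read by METTL16, an RNA methyltransferase that binds hairpins in its 3' untranslated region and links its splicing and stability to the level of SAM. The letters of these hairpin loops were searched as TACAGAGAA and TACAGAAAA on the transcript strand and were found 6 times in the reference transcript Mat2a-202, each time in the 3' untranslated region. At least 1 match was present in a protein-coding transcript of 1762 of 21901 genes (8.05%), at least 5 matches were present in 1 gene, Mat2a, and no other of the 10 genes had a match. The matches are a description of the reference sequence, and binding or methylation was not measured here. The 6 sites, on the minus strand of GRCm38, are printed because they set Mat2a apart from the other genes of the cycle, with the matched letters in capitals.
Mat2a site 1, chr6:72434235-72434263: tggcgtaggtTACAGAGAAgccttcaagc
Mat2a site 2, chr6:72433451-72433479: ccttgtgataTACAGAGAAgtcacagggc
Mat2a site 3, chr6:72433272-72433300: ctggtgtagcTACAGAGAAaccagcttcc
Mat2a site 4, chr6:72433157-72433185: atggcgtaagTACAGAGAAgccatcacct
Mat2a site 5, chr6:72433046-72433074: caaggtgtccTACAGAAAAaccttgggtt
Mat2a site 6, chr6:72432938-72432966: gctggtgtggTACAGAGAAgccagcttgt

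Mat2b (ENSMUSG00000042032, GRCm38 chr11:40679314-40695203, minus strand) encodes the regulatory subunit that joins the Mat2a product. Its level was even in both groups, 34.5 to 41.6 CPM in PF and 35.2 to 45.0 CPM in AF livers. The log2 fold change was 0.08 (SE 0.0813, 95% CI -0.10 to 0.25, edgeR adjusted p = 0.470). Mat2b passed the threshold only on library totals, at 0.45 (edgeR adjusted p = 0.0160), where it stood 0.05 above the shifted median of all genes. Per kb of merged exon, Mat2a was at 3.97 ± 0.471 times the level of Mat2b in PF livers (SD, n = 5). In AF livers it was at 5.49 ± 1.23 times (SD, n = 7). The ranges of 3.55 to 4.50 and 4.47 to 8.18 overlapped at their edges. The size of this ratio depends on the exon lengths used, which pool all transcripts of a gene.

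The ratio of Mat1a to Mat2a compares the liver form with the extrahepatic form within each library, and it needs no library scaling. PF replicates 1 to 5 had 27.9, 29.4, 41.5, 42.8 and 32.2 reads on Mat1a for each read on Mat2a. AF replicates 1 to 7 had 16.4, 25.5, 19.5, 28.7, 15.1, 34.0 and 35.4. AF replicates 1, 2, 3 and 5 were below all PF livers, replicates 4, 6 and 7 were within the PF range, and no AF liver reached PF replicates 3 and 4. The mean ratio was 34.8 ± 6.95 (SD, n = 5) in PF and 24.9 ± 8.23 (SD, n = 7) in AF livers. On the log2 scale the AF mean was lower by 0.53 (difference -0.53, 1.44-fold lower, 95% interval from the inverted permutation test -1.09 to 0.03), and this was not past the threshold in the exact two-sided permutation test over all ways to assign the livers to 5 and 7 (p = 0.0631).

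Single livers decided that call. Without AF replicate 6 the difference was -0.62 (exact two-sided permutation p = 0.0455) and without AF replicate 7 it was -0.63 (exact p = 0.0390), whereas without AF replicate 5 it was -0.42 (exact p = 0.108). Taken per kb of exon, the ratio was 45.0 ± 8.99 in PF (SD, n = 5) and 32.2 ± 10.6 in AF livers (SD, n = 7), and Mat2a made up 2.24 ± 0.421% and 3.30 ± 1.10% of both transcripts. Mat1a remained the far more abundant form in each of the 12 livers, at 19.6 times the level of Mat2a per kb even in AF replicate 5. The per-kb ratio and share depend on the exon lengths used, and the count ratio does not. The summed level of Mat1a and Mat2a was 1326 ± 129 CPM per kb in PF (SD, n = 5) and 1423 ± 606 CPM per kb in AF livers (SD, n = 7), and the exact permutation test of the log2 level gave p = 0.972.

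**Figure D2:**
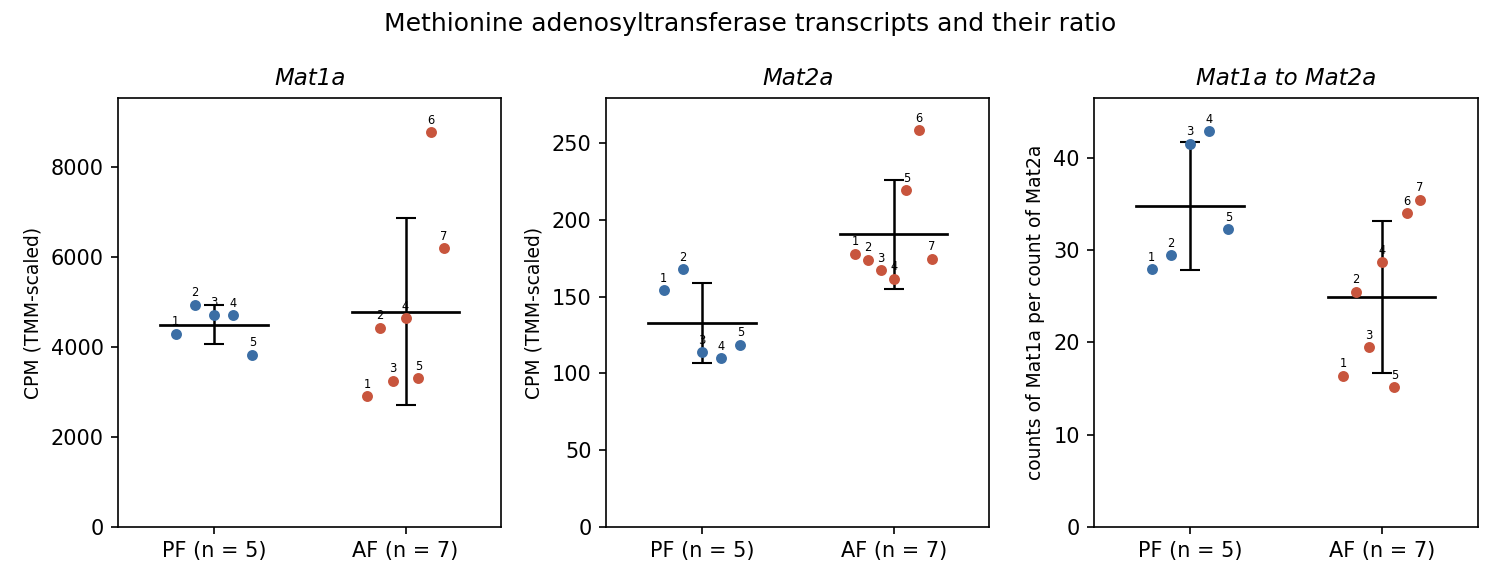
Mat1a and Mat2a in CPM and the ratio of their counts in each PF (n = 5) and AF (n = 7) liver, with replicate numbers, the mean as a line and the SD as a bar. Mat2a is shifted upward in AF livers, Mat1a spreads from 2912 to 8776 CPM in AF livers, and AF replicates 6 and 7 keep a ratio of 34.0 and 35.4.

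Among the genes that spend SAM, Pemt was lower. Pemt (ENSMUSG00000000301, GRCm38 chr11:59970614-60046489, minus strand) encodes phosphatidylethanolamine N-methyltransferase, which makes phosphatidylcholine by stepwise methylation and is one of the large users of SAM in liver. Pemt stood at 225, 237, 176, 189 and 167 CPM in PF replicates 1 to 5, and AF livers ran from 90.4 CPM (replicate 5) over a median of 112 CPM to 189 CPM (replicate 7). AF replicates 1 to 5 were below all PF livers, and replicates 6 and 7 were within the PF range. The level fell: PF livers averaged 199 ± 30.6 CPM (SD, n = 5) and AF livers 128 ± 40.2 CPM (SD, n = 7), for a fitted log2 fold change of -0.64 (SE 0.194, 95% CI -1.06 to -0.22, edgeR adjusted p = 0.0193; exact two-sided permutation test, p = 0.0177). The call was lost without PF replicate 2 (-0.57, edgeR adjusted p = 0.0537) and on library totals (-0.32, edgeR adjusted p = 0.0689).

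Gnmt (ENSMUSG00000002769, GRCm38 chr17:46725664-46729168, minus strand) encodes glycine N-methyltransferase, which burns off surplus SAM and binds folate. Gnmt stood at 745, 679, 541, 485 and 476 CPM in PF replicates 1 to 5, and AF livers ran from 178 CPM (replicate 5) over a median of 415 CPM to 786 CPM (replicate 7), a 4.42-fold span that was the widest of the 10 genes. AF replicates 1, 3, 4 and 5 lay below all PF livers, and replicate 7 lay above them. PF livers averaged 585 ± 121 CPM (SD, n = 5) and AF livers 465 ± 218 CPM (SD, n = 7), and the fitted log2 fold change was -0.33 and missed the threshold (SE 0.305, 95% CI -0.99 to 0.32, edgeR adjusted p = 0.400). In a fit of replicates 1 to 5 of both groups, which leaves out AF replicates 6 and 7 and was added after seeing the data, Gnmt stood at -0.73 (edgeR adjusted p = 0.0324). In the planned fit with a replicate block over the same livers, Gnmt stood at -0.79 (edgeR adjusted p = 0.0179). On library totals it stood at -0.034 (edgeR adjusted p = 0.913), and with a liver left out between -0.51 and -0.19, none of these past the threshold.

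Ahcy (ENSMUSG00000027597, GRCm38 chr2:155059310-155074497, minus strand) encodes SAH hydrolase, which removes the product that inhibits methyltransferases. Ahcy stood at 534, 725, 530, 532 and 474 CPM in PF replicates 1 to 5. AF replicates 1, 3, 4 and 5 held 210, 252, 291 and 243 CPM, below all PF livers, and replicates 2, 6 and 7 held 504, 675 and 507 CPM, within the PF range. PF livers averaged 559 ± 96.0 CPM (SD, n = 5) and AF livers 383 ± 178 CPM (SD, n = 7), and the fitted log2 fold change was -0.54 (SE 0.280, 95% CI -1.15 to 0.06), not past the threshold (edgeR adjusted p = 0.135). Ahcy did pass without AF replicate 6 (-0.74, edgeR adjusted p = 0.0261) and with sample quality weights (-0.69, limma-voom adjusted p = 0.0137). It also passed in replicates 1 to 5 of both groups (-0.90, edgeR adjusted p = 0.00743), and there with the replicate block (-0.95, edgeR adjusted p = 0.00181). The value was smaller on library totals (-0.26, edgeR adjusted p = 0.284) and ranged from -0.74 to -0.44 with a liver left out (edgeR adjusted p = 0.0261 to 0.278). The count of Ahcy is uncertain, because 77% of the 50-base words of its transcript also occur in transcripts of other genes, mainly the pseudogenes Gm4737 and Gm9826. Those 2 genes themselves held 0.430% and 0.0173% as many reads as Ahcy in PF livers.

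The step that returns homocysteine to methionine with betaine has Bhmt as its main enzyme, and a close relative, Bhmt2, lies beside it in the genome. Bhmt2 (ENSMUSG00000042118, GRCm38 chr13:93655720-93674302, minus strand) encodes a methyltransferase that uses S-methylmethionine. PF replicates 1 to 5 held 239, 195, 214, 195 and 198 CPM of Bhmt2, and AF replicates 1 to 7 held 95.5, 152, 126, 136, 136, 129 and 154 CPM. Every AF liver was below every PF liver, replicates 6 and 7 included. The level fell: PF livers averaged 208 ± 19.1 CPM (SD, n = 5) and AF livers 133 ± 19.6 CPM (SD, n = 7), for a fitted log2 fold change of -0.65 (SE 0.116, 95% CI -0.90 to -0.40, edgeR adjusted p = 0.00111). The exact two-sided permutation p of 0.00126 is the smallest that these group sizes allow, and the edgeR call held in every setting and with each liver left out.

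Bhmt (ENSMUSG00000074768, GRCm38 chr13:93616675-93637961, minus strand) encodes betaine-homocysteine methyltransferase, one of the abundant enzymes of hepatocytes. Bhmt stood at 1914, 1045, 1167, 1249 and 1400 CPM in PF replicates 1 to 5, and AF livers ran from 664 CPM (replicate 1) over a median of 1270 CPM to 2378 CPM (replicate 2). The groups overlapped widely, with 3 AF livers below and 1 above all PF livers. PF livers averaged 1355 ± 338 CPM (SD, n = 5) and AF livers 1311 ± 580 CPM (SD, n = 7), and the fitted log2 fold change was -0.05 (SE 0.288, 95% CI -0.67 to 0.57, edgeR adjusted p = 0.908), and this interval includes the fitted change of Bhmt2. The difference between Bhmt and Bhmt2 was not tested. Bhmt shares 59.6% of its 50-base words with other genes, mainly the pseudogenes Gm5096 and Bhmt-ps1, and Bhmt2 shares 4.99%, so the count of Bhmt is the less certain one. Gm5096 and Bhmt-ps1 themselves held 0.299% and 0.00591% as many reads as Bhmt in PF livers.

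The promoters of these genes were taken from RefSeq (GRCm38.p6), in which 8 of the 10 genes matched and Pemt has 2 start sites. Mat1a and Cth were not matched. Shown are the 250 bases before the RefSeq start of Mat2a, which rose, of the neighbours Bhmt and Bhmt2, and of Cbs. All are on the minus strand and written 5' to 3'. RefSeq and GENCODE starts can differ. The Bhmt window begins at 93637759, and the GENCODE gene reaches 93637961, so most of this window lies inside it. The Cbs window begins at 31637206, and the GENCODE gene reaches 31637238, so the bases nearest the start lie inside it. Capitals mark matches on either strand to the letters of any of 6 elements. The TATA box was searched as TATAAA. The CCAAT box was searched by the letters of its name, and the GC box as GGGCGG. The E-box was searched as CACGTG. An element of the ATF4 type was searched as TGATGNAA, and an element of the HNF4A type was searched as CAAAGTCCA.
Mat2a, chr6:72439557-72439806: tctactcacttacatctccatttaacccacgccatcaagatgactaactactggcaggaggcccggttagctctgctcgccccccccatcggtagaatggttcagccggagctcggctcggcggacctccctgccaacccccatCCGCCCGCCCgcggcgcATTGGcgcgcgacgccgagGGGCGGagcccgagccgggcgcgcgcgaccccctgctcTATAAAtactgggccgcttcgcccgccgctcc
Bhmt, chr13:93637759-93638008: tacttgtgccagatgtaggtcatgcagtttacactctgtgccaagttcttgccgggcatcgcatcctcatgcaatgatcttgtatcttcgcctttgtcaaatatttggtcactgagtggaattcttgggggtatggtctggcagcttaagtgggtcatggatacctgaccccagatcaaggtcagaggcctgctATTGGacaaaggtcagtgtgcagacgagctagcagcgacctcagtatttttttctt
Bhmt2, chr13:93674303-93674552: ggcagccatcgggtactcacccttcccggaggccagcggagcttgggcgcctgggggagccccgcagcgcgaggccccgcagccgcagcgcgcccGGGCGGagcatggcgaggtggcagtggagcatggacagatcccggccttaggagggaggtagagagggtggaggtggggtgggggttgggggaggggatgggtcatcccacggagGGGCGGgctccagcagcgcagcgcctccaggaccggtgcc
Cbs, chr17:31637206-31637455: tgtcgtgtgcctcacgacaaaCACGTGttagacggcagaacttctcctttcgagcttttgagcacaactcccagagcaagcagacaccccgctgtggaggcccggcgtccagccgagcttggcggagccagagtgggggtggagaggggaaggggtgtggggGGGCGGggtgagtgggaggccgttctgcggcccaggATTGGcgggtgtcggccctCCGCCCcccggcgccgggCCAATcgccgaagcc

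The Bhmt and Bhmt2 windows differ in composition. Bhmt2 has 74% G and C with 20 CpG pairs and 2 GC boxes, which begin 155 and 40 bases before the start, and Bhmt has 48% G and C with 5 CpG pairs and 1 CCAAT box at 56 bases. Mat2a carries a TATA box at 32 bases, a CCAAT box at 89 bases and 3 GC boxes at 106, 102 and 70 bases, of which the first 2 overlap, in a window with 29 CpG pairs. Cbs carries an E-box at 229 bases, CCAAT boxes at 52 and 15 bases and GC boxes at 88 and 33 bases. Among 32851 windows of this length, 12.4% hold the TATA letters, 33.8% the CCAAT letters, 32.7% the GC box letters, 6.02% the E-box letters, 3.45% the ATF4-type letters and 0.384% the HNF4A-type letters. None of the windows of the 8 genes held the last 2 elements. These are matches of letters in 1 window per start site, and no factor was measured.

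Transsulfuration begins with Cbs (ENSMUSG00000024039, GRCm38 chr17:31608894-31637238, minus strand), which encodes cystathionine beta-synthase and commits homocysteine to cysteine. Cbs stood at 336, 285, 245, 296 and 319 CPM in PF replicates 1 to 5, and AF livers ran from 111 CPM (replicate 5) over a median of 214 CPM to 298 CPM (replicate 4). All AF livers but replicate 4 were below every PF liver. The level fell: PF livers averaged 296 ± 34.8 CPM (SD, n = 5) and AF livers 208 ± 59.2 CPM (SD, n = 7), for a fitted log2 fold change of -0.51 (SE 0.192, 95% CI -0.92 to -0.09), with an edgeR adjusted p of 0.04998 at the very edge of the threshold and an exact two-sided permutation p of 0.0189. The direction was the same in every setting, but the call was lost in 12 of 22 alternatives, among them 9 of the 12 fits with a liver left out, where the edgeR adjusted p ranged from 0.0199 to 0.103. On library totals the log2 fold change was -0.14 (edgeR adjusted p = 0.559).

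Cth (ENSMUSG00000028179, GRCm38 chr3:157894248-157925077, minus strand) encodes cystathionine gamma-lyase, which releases cysteine in the next step. PF replicates 1 to 5 held 374, 320, 324, 395 and 317 CPM of Cth, and AF livers ran from 233 CPM (replicate 1) over a median of 298 CPM to 472 CPM (replicate 6). AF livers lay on both sides of the PF range, 4 below it and 2 above it. The log2 fold change was -0.06 (SE 0.167, 95% CI -0.42 to 0.30, edgeR adjusted p = 0.797). Its sign turned on library totals (0.27, edgeR adjusted p = 0.108) and without AF replicate 1 (0.01). The difference between Cbs and Cth was not tested.

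**Figure D3:**
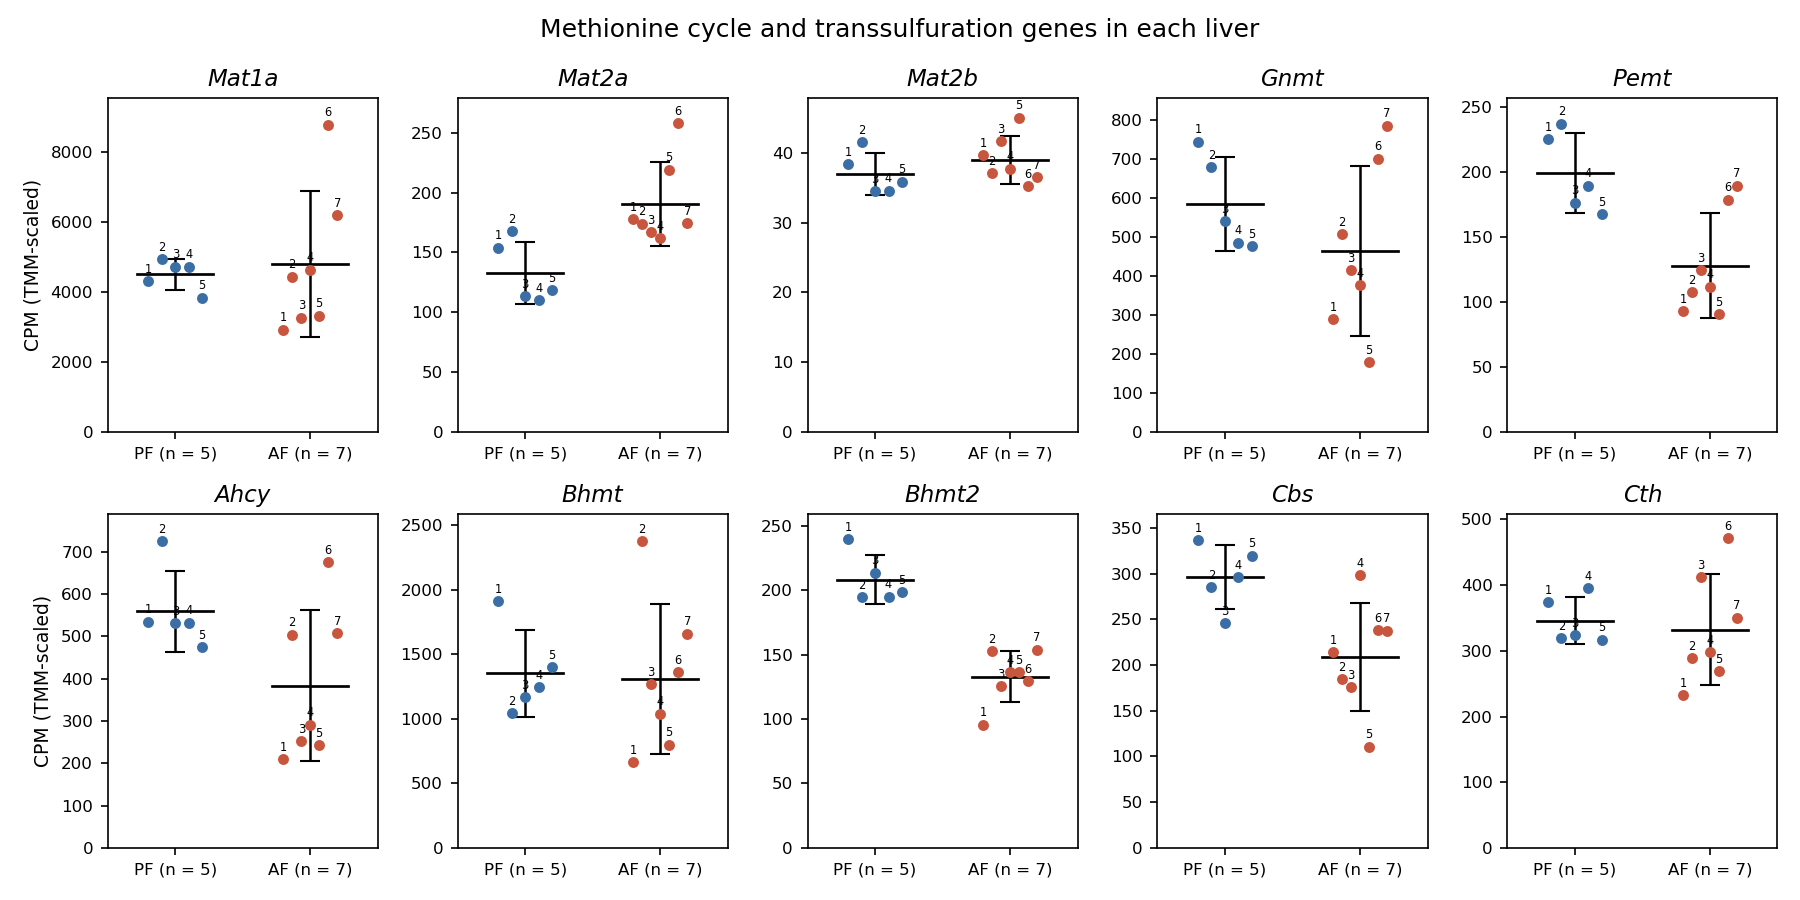
CPM of each of the 10 genes in PF (blue, n = 5) and AF (red, n = 7) livers, each panel with its own axis from 0, points numbered by replicate, the mean as a line and the SD as a bar. Bhmt2 is the gene without overlap between the groups, and the AF points of Mat1a, Gnmt, Ahcy and Bhmt are spread over 3.01 to 4.42 times their lowest value.

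Levels of different genes were compared as CPM per kb of merged exon. Merged exons pool all transcripts of a gene, and the longest coding transcript can be much shorter. Bhmt has 5758 merged bases and 2490 in that transcript, Mat2b has 5001 and 2053, and Mat1a has 3468 in both. The levels and their order depend on this choice of length, which was not varied. In PF livers the order was Mat1a (1297), Gnmt (485), Bhmt (235), Ahcy (199), Cth (124), Pemt (94.6), Bhmt2 (84.4), Cbs (39.6), Mat2a (29.6) and Mat2b (7.40). The ranges over PF livers of Bhmt and Ahcy, of Pemt and Bhmt2, and of Cbs and Mat2a overlapped, and the other neighbours in the order did not. AF livers kept Mat1a first (1380) and Mat2b last (7.80), and the means of Cbs (27.8) and Mat2a (42.4) changed places. The ranges of all neighbours overlapped in AF, except those of Mat1a and Gnmt and of Cbs and Mat2b. Summed over the 10 genes, the level was 2260 to 2816 CPM per kb in PF livers and 1512 to 3992 CPM per kb in AF livers, with AF replicates 1 and 5 lowest and AF replicates 6 and 7 highest of all 12.

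The AF livers differed among themselves more than the PF livers did in most of the 10 genes. The SD of log2 CPM was larger in AF than in PF for 9 of them. Mat2a was the exception, and the SDs of Mat2b were nearly equal (0.114 in PF and 0.123 in AF livers). The share of all genes tested with a larger SD in AF was not counted. The coefficient of variation of Mat1a was 9.81% in PF and 43.5% in AF livers, that of Ahcy 17.2% and 46.5%. Mat2b and Bhmt2 varied little, with 8.75% and 14.8% in AF livers. AF replicate 1 had 8 of the 10 genes below all PF livers, replicate 5 also 8, replicates 3 and 4 each 6, replicate 2 had 4, and replicates 6 and 7 each 2. Above all PF livers were 3 genes in each of AF replicates 6 and 7, 2 in each of replicates 2, 3 and 5, 1 in replicate 1 and 0 in replicate 4. The matching shares of all genes tested were not counted for each liver, so these counts are no result about the 10 genes as a set. Averaged over the 10 genes, log2 CPM relative to the PF mean was -0.67 in AF replicate 1 and -0.65 in replicate 5, compared to 0.18 in replicate 6 and 0.07 in replicate 7.

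These livers also stood apart by a gene outside the cycle. Cyp2e1, the pericentral cytochrome that oxidizes ethanol, was at 9182 to 12604 CPM in PF livers, at 472, 1074, 1119 and 1086 CPM in AF replicates 1, 3, 4 and 5, and at 5800, 6576 and 7236 CPM in AF replicates 2, 6 and 7. The same 4 and 3 livers were separated by Ahcy (210 to 291 CPM and 504 to 675 CPM), by Gnmt (178 to 415 CPM and 507 to 786 CPM) and by Bhmt (664 to 1270 CPM and 1364 to 2378 CPM), and narrowly, in the opposite direction, by Mat2b (37.8 to 45.0 CPM and 35.2 to 37.1 CPM). The other 6 genes overlapped between them, among them Mat2a (162 to 219 CPM and 174 to 258 CPM) and Bhmt2 (95.5 to 136 CPM and 129 to 154 CPM), and so did the Mat1a to Mat2a ratio (15.1 to 28.7 and 25.5 to 35.4). The labels give no reason to separate these livers, and the sets were taken from these data, so these values are a description. The share of all genes tested that separates the same sets was not counted. The TMM factors separated them too, at 1.15 to 1.36 and 0.880 to 1.04. Bhmt had 41822 of 27343993 reads in AF replicate 3 and 36632 of 30530030 in AF replicate 6. Without these factors Bhmt therefore did not separate the sets. Because Cyp2e1, Ahcy and Gnmt separated the AF livers into sets of 4 and 3, no pooled correlation of the ratio with the other genes is given.

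**Figure D4:**
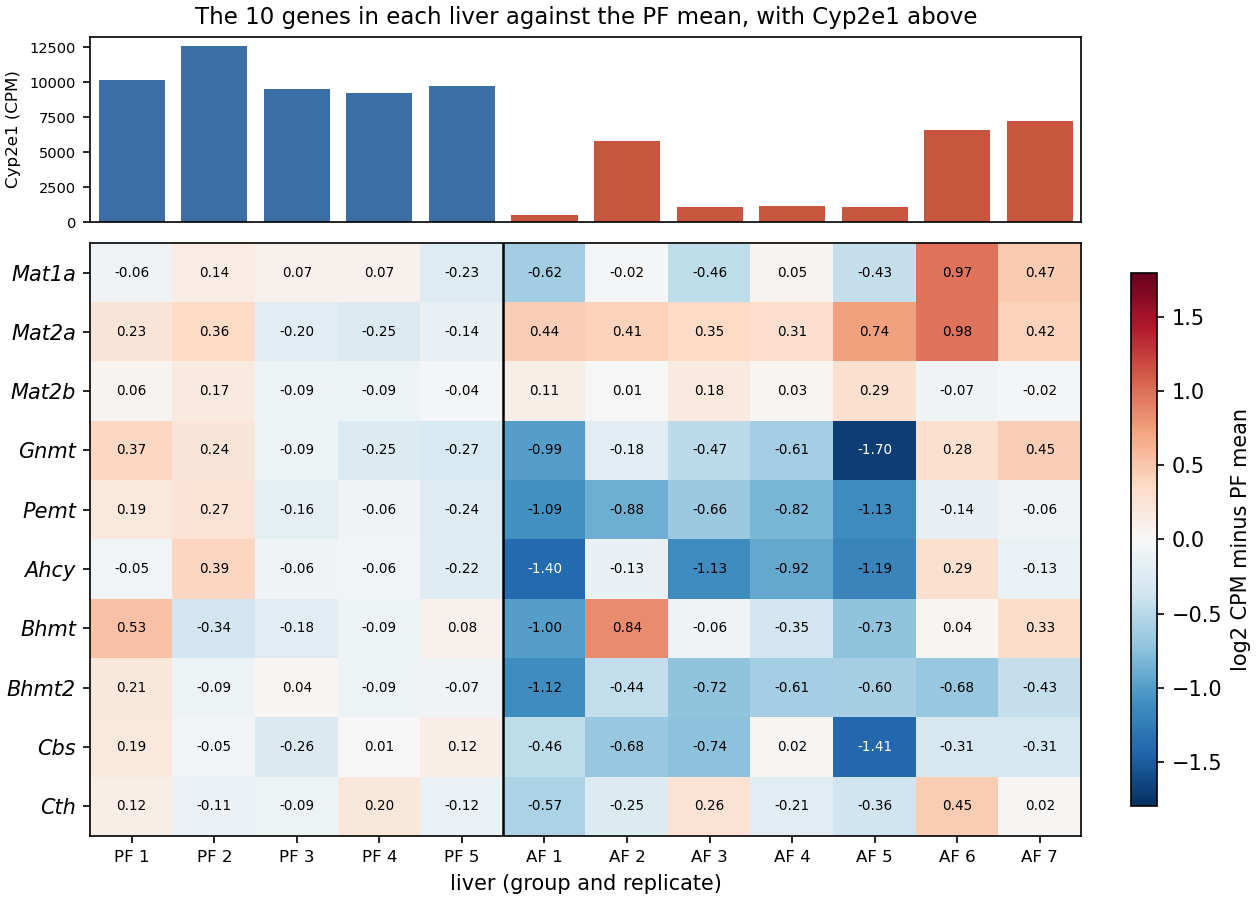
Heatmap of log2 CPM of the 10 genes minus the PF mean in each of the 5 PF and 7 AF livers, with red above and blue below the PF mean, under bars of Cyp2e1 in CPM. Bhmt2 is below the PF mean in every AF column and Mat2a above it, while Gnmt and Ahcy are lowest in the AF columns with the shortest Cyp2e1 bars.

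Several marker lists of other cell types had members that moved with the groups. The counts stand beside 22.0% higher and 17.8% lower over all genes tested, and the lower calls of hepatocyte and T cell markers and the higher calls of periportal and endothelium markers are near the share in their direction. Over 8 hepatocyte markers, 0 were higher and 2 lower in AF, and their summed level was 107246 to 151672 CPM in PF and 67152 to 118334 CPM in AF livers. Over 8 pericentral markers 0 were higher and 3 lower, with sums of 14760 to 18032 CPM and 1290 to 11041 CPM. In contrast, 5 of 6 Kupffer cell markers (616 to 886 and 891 to 2782 CPM), 4 of 7 recruited macrophage markers (71.6 to 296 and 142 to 1619 CPM), 5 of 7 stellate cell and fibroblast markers (67.9 to 162 and 135 to 583 CPM), 5 of 6 bile duct markers (49.9 to 244 and 75.9 to 1118 CPM) and 3 of 5 dividing cell markers (13.2 to 54.6 and 13.9 to 155 CPM) were higher, and none of these lists had a lower member. Of the periportal markers 2 of 8 were higher and of the sinusoidal endothelium markers 1 of 6, 1 of 5 T cell markers was lower, and no neutrophil (6), B cell (4) or pancreas marker (1 of 4 tested) passed the threshold. AF replicates 6 and 7 had the lowest recruited macrophage, bile duct and stellate cell sums of the AF livers. Spp1, which is in both the macrophage and the bile duct list and was not past the threshold (edgeR adjusted p = 0.0635), makes up most of the bile duct sum. Without Spp1 the bile duct sums were 3.48 to 5.43 CPM in PF and 6.37 to 69.7 CPM in AF livers, with AF replicates 6 and 2 lowest in AF, and the macrophage sums were 25.2 to 69.5 CPM and 59.8 to 570 CPM, with AF replicates 6 and 7 lowest in AF. In PF livers Alb makes up most of the hepatocyte sum (mean 89801 CPM) and Cyp2e1 most of the pericentral sum (mean 10224 CPM). Neither was past the threshold (edgeR adjusted p = 0.164 and 0.05002). Ahsg in the hepatocyte list, and Cyp1a2 and Axin2 in the pericentral list, had positive log2 fold changes, not past the threshold. The other members of these lists had negative ones. No listed marker was at 0 reads in all livers. The part of cell composition in the results of the 10 genes was not tested.

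The genes closest to Mat1a and Mat2a in pattern were found by the root mean square difference of log2 CPM, centred on the PF mean, over the 12 livers, among 8347 genes whose log2 CPM averaged 3 or more. For Mat1a they were Oplah (0.18), Tmem205 (0.20), Clec4g (0.20), Akr1a1 (0.20) and Pcx (0.21). For Mat2a they were Ikbkg (0.14), Txnl4a (0.15), Ube2o (0.17), Hsdl1 (0.18) and Ywhag (0.18). None of these is another gene of the cycle.

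Around the cycle, 106 further genes of one-carbon and sulfur metabolism were listed by function, and 103 of them were tested. In AF livers 24 (23.3%) were higher and 33 (32.0%) were lower, compared to 22.0% and 17.8% of all genes tested, and their median log2 fold change was -0.14. On library totals 40 (38.8%) were higher and 14 (13.6%) lower, compared to 45.6% and 6.62% of all genes tested with that scaling. No test of the lists was made, and the counts describe them.

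Folate enzymes, which supply the methyl group for the other route of remethylation, were divided: 7 of 22 were higher and 7 lower (median 0.00). Aldh1l1, which oxidizes formyl-folate and is the most abundant of them, fell, with 1178 ± 176 CPM in PF (SD, n = 5), 621 ± 206 CPM in AF (SD, n = 7) and a log2 fold change of -0.92 (edgeR adjusted p = 0.00686). Mthfd1, the cytosolic trifunctional enzyme, fell by 0.82 on the log2 scale (edgeR adjusted p = 8.48e-04), and all AF livers were below all PF livers for both genes. The mitochondrial Mthfd1l rose by 2.08 on the log2 scale (edgeR adjusted p = 6.67e-04), from 1.92 to 8.11 CPM. Ftcd, of histidine breakdown, and Gldc, of glycine cleavage, were not past the threshold (-0.32 and 0.47, edgeR adjusted p = 0.0631 and 0.131). Ftcd passed in 6 of 22 alternatives, DESeq2 among them, and Gldc in 1, on library totals.

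Of the genes of choline, betaine and phosphatidylcholine, 3 of 17 were higher and 6 lower (median -0.41). Chka, choline kinase of the route to phosphatidylcholine that does not use SAM, rose, with 26.8 ± 10.9 CPM in PF (SD, n = 5), 83.6 ± 56.6 CPM in AF (SD, n = 7) and a log2 fold change of 1.64 (edgeR adjusted p = 0.0116). Pipox, which oxidizes sarcosine and pipecolate, fell by 0.94 on the log2 scale (edgeR adjusted p = 0.00213). The enzymes that take betaine's products apart, Dmgdh (-0.51) and Sardh (-0.44), and Aldh7a1 (-0.41), which can make betaine, were not past the threshold, with edgeR adjusted p of 0.114, 0.162 and 0.114. Each of those 3 passed with sample quality weights (limma-voom adjusted p = 0.00743, 0.0353 and 0.0109), and in all they passed in 5, 3 and 4 of 22 alternatives.

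Among other methyltransferases that use SAM, 3 of 19 tested were higher and 6 lower (median -0.14). Dnmt3a, a DNA methyltransferase, rose by 0.88 on the log2 scale (edgeR adjusted p = 7.61e-04). Inmt had the lowest value, -0.99, but ran from 28.4 to 363 CPM in AF livers and was not past the threshold (edgeR adjusted p = 0.176), although it passed with sample quality weights (-1.58, limma-voom adjusted p = 0.0215). Mettl7b (0.47) and Mettl7a1 (0.07) were not past it either, with edgeR adjusted p of 0.0514 and 0.802. Mettl7b passed in 6 of 22 alternatives, DESeq2 and upper-quartile factors among them, and Mettl7a1 in 1, on library totals.

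SAM also feeds polyamine synthesis, whose sulfur by-product is salvaged to methionine. Of 14 genes tested there, 6 were higher and 4 lower (median 0.25). The catabolic enzymes moved apart: Smox, spermine oxidase, rose by 2.53 on the log2 scale from 1.06 to 6.11 CPM (edgeR adjusted p = 1.51e-04), and Paox, the peroxisomal polyamine oxidase, fell by 2.31 from 48.9 to 9.84 CPM (edgeR adjusted p = 1.68e-06). Sat1, which acetylates polyamines, rose by 0.62 (edgeR adjusted p = 0.00134), and Azin1, an antizyme inhibitor, fell by 0.92 (edgeR adjusted p = 3.97e-04). For these 4 genes no AF liver overlapped the PF livers. Adi1, of methionine salvage, fell by 0.51 (edgeR adjusted p = 0.0279), a call that was lost on library totals (-0.19, edgeR adjusted p = 0.168) and without PF replicate 1 or 2 or AF replicate 3 or 4.

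Downstream of Cth, 3 of 13 genes of cysteine, glutathione and taurine were higher and 5 lower (median -0.09). Cdo1, which oxidizes cysteine on the way to taurine and sulfate, fell, with 1943 ± 154 CPM in PF (SD, n = 5), 975 ± 248 CPM in AF (SD, n = 7) and a log2 fold change of -0.99 (edgeR adjusted p = 0.00162), and Csad, the next enzyme of taurine synthesis, fell by 1.03 (edgeR adjusted p = 0.0154). In the other branch Gclc, the catalytic subunit of glutamate-cysteine ligase, rose by 1.34, with 259 ± 35.2 CPM in PF (SD, n = 5) and 655 ± 293 CPM in AF (SD, n = 7; edgeR adjusted p = 0.00234), whereas its partner Gclm was not past the threshold (-0.09, edgeR adjusted p = 0.705). Slc7a11, which imports cystine, had the highest value of the 103 genes, a fitted log2 fold change of 8.13 (edgeR adjusted p = 9.05e-05). Its PF libraries held only 1 to 15 reads each and its AF libraries 202 to 5627, so the fitted value rests on few PF reads, and without PF replicate 5, the highest PF library, it was 9.20 (edgeR adjusted p = 2.98e-04). For Cdo1, Gclc and Slc7a11 no AF liver overlapped the PF livers.

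SAH hydrolysis releases adenosine as well. Of 5 genes listed there, Nt5e, which makes adenosine outside the cell, rose by 3.48 on the log2 scale from 6.08 to 68.2 CPM (edgeR adjusted p = 3.92e-04), and Adk, adenosine kinase, fell by 0.63 from 836 to 541 CPM (edgeR adjusted p = 0.00682). Of the rest, the SAH hydrolase-like genes Ahcyl1 (-0.19, with all AF livers below all PF livers) and Ahcyl2 (-0.08) and the deaminase Ada (0.38) were not past the threshold, with edgeR adjusted p of 0.0514, 0.547 and 0.189. Ahcyl1 passed in 8 of 22 alternatives, Ada in 2 and Ahcyl2 in none.

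Of 3 regulators of the methionine adenosyltransferase messengers, Mettl16 and Elavl1 were not past the threshold (-0.07 and -0.12, edgeR adjusted p = 0.595 and 0.260). Hnrnpd fell by 0.31 (edgeR adjusted p = 0.0430), a call that was lost in 13 alternatives and whose sign turned on library totals (0.06, edgeR adjusted p = 0.772). Of 10 genes that handle cobalamin and vitamin B6, the cofactors of methionine synthase and of transsulfuration, 1 was higher and 3 were lower (median -0.25). Tcn2, the cobalamin carrier, rose by 0.70 (edgeR adjusted p = 0.00326), Mmab, which makes adenosylcobalamin, fell by 1.42 (edgeR adjusted p = 3.58e-05), and Mmut, the mutase that uses it, fell by 0.79 (edgeR adjusted p = 0.00205). Lmbrd1, which exports cobalamin from the lysosome, was not past the threshold (-0.21, edgeR adjusted p = 0.143) and passed in 4 of 22 alternatives.

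**Figure D5:**
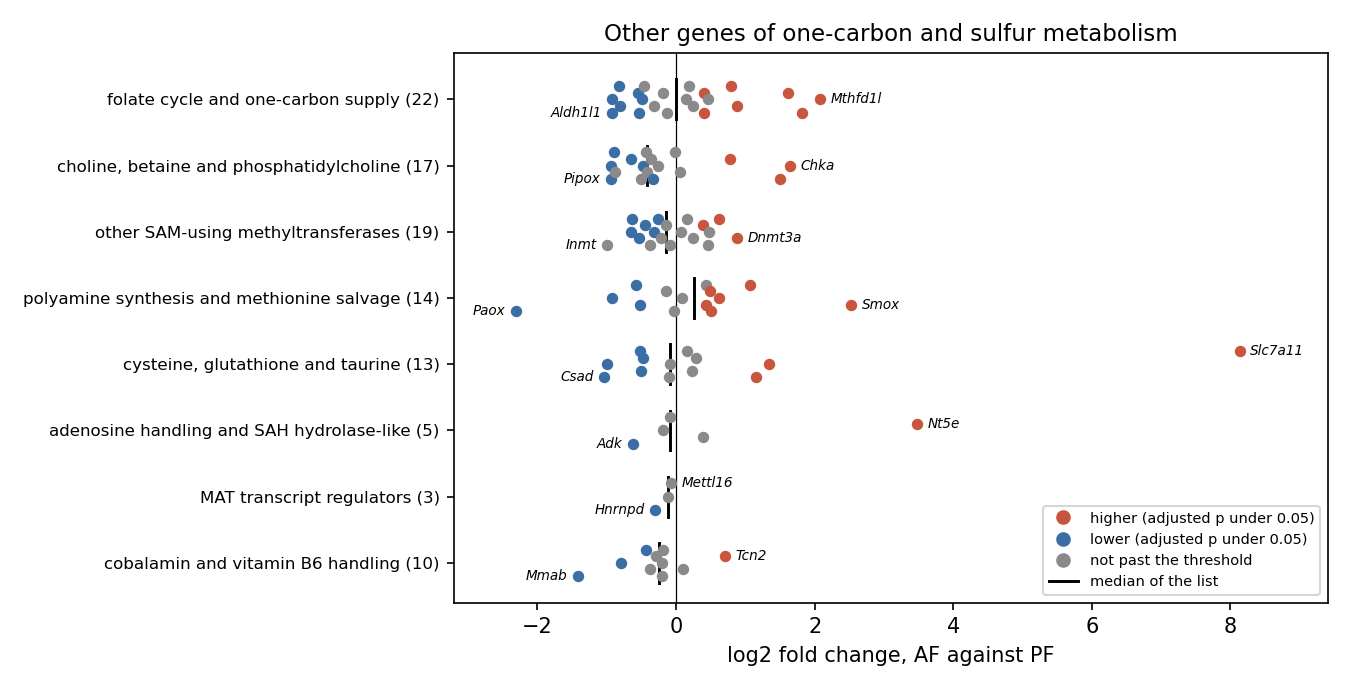
Log2 fold change in AF against PF livers of 103 other genes of one-carbon and sulfur metabolism by list, with the number tested in parentheses, the median of each list as a bar and the genes with the highest and lowest value named. Red and blue points passed the edgeR threshold; Slc7a11 stands far to the right at 8.13 and Paox to the left at -2.31.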

How the data were processed

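The authors isolated liver RNA (TRIzol), selected mRNA on oligo(dT), made libraries with a stranded kit per the labels, checked reads with FastQC 0.10.1, aligned them untrimmed to mm10 (GRCm38) with TopHat2 2.0.13 and, per the submitters' processing notes, counted them with HTSeq 0.10.0. They deposited raw counts per Ensembl gene for 12 libraries. Annotation release and strand setting are not given in the sources used here, and unless strand was used, reads of genes on the opposite strand (Particl at Mat2a, Gm15622 at Bhmt) cannot be told apart from those of the member. The Cuffdiff2 results of the study were not used here. No column was left out.

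IDs were named through GENCODE M21 (54165 of 54232). After the filterByExpr filter (14168 genes), counts with TMM factors were tested in R 4.3.3 with edgeR 4.0.16 (quasi-likelihood test, AF against PF, no covariates, Benjamini-Hochberg over all genes tested, threshold 0.05). A standard error is the log2 fold change over the root of F. The Mat1a to Mat2a ratio used raw counts and an exact two-sided permutation test. Members and lists were chosen with earlier results of these data known. Named by rule in each list are the highest and the lowest log2 fold change and up to 3 further genes by mean CPM; 2 genes so named are not reported here. Alternatives were RLE, upper-quartile factors, library totals, DESeq2 1.42.0, limma 3.58.1 (voom, with and without quality weights), a lower bar on counts (1 read in some library) or a mean count of 10, a replicate block, and each liver left out. A fit of replicates 1 to 5 without the block was added after seeing the data. Within groups, the closest pair of libraries differed by a chi-square of 1.72 per gene, above counting noise. The steps were tested on simulated data.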

Additional observations from a re-analysis of the deposited data

Results flagged for a closer look

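In 94 groups of values (10 members, 36 listed genes and the ratio, each within PF or AF) the extreme liver was compared with the rest by Dixon's gap test, which chance passes in about 1 of 20 groups, or 4.7 here. In 4 groups a liver stood beyond the limit, all of them the highest PF value: PF replicate 2 with 725 CPM of Ahcy, PF replicate 1 with 1488 CPM of Aldh1l1, PF replicate 5 with 0.679 CPM of Slc7a11 and PF replicate 2 with 261 CPM of Gclm. Leaving out PF replicate 2 gave -0.44 for Ahcy on the log2 scale (edgeR adjusted p = 0.278).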

How the results depend on the processing

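Of the 4 members past the threshold, Mat2a and Bhmt2 kept their call in every alternative run, Pemt lost it in 2 and Cbs in 12. On library totals 2 members were higher and 1 lower, and 40 listed genes were higher and 14 lower, beside 45.6% and 6.62% of all genes tested. With a liver left out, 2 to 5 members passed (beside 32.1% to 46.1% of all genes), with 1 higher and 1 to 4 lower; the lowest number came without PF replicate 2, where Bhmt2 and Mat2a remained. The log2 Mat1a to Mat2a ratio differed by -0.63 to -0.42 (exact permutation p = 0.0390 to 0.136) with a liver left out, and by -0.34 with medians in place of means (exact permutation p = 0.192).

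Replicate numbers do not pair these livers: same-numbered livers correlated in their deviations between -0.08 and 0.11, and 1 of 5 PF livers matched its own number best. With the replicate block over numbers 1 to 5, 1 member was higher and 5 were lower (44.7% of all genes were called), and without it in the same livers the counts were again 1 and 5 (47.9%); the Mat1a to Mat2a ratio differed by -0.75 within numbers (p = 0.0625, the smallest 5 pairs allow in an exact test). The Inmt log2 fold change passed the threshold with the block, at -2.11 (edgeR adjusted p = 0.00505), and not without it in the same livers, at -1.51 (edgeR adjusted p = 0.0547).

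Of the genes whose sign turned in some alternative, Hnrnpd alone had passed the threshold in the main fit. Mat1a was -0.075 with quality weights, -0.29 with the block, -0.28 in numbers 1 to 5 without it, and -0.13 to 0.19 with a liver left out. Bhmt was 0.0080 with upper-quartile factors and -0.28 to 0.11 with a liver left out, and Cth -0.16 to 0.014. Mettl7a1 was -0.0074 with quality weights, -0.13 with the block, -0.086 without it and -0.017 to 0.18 with a liver left out. On library totals the values were 0.27 for Bhmt, 0.27 for Cth, 0.021 for Ftcd, 0.24 for Gclm, 0.16 for Ahcyl1, 0.28 for Ahcyl2, 0.28 for Mettl16, 0.061 for Hnrnpd, 0.26 for Elavl1 and 0.13 for Lmbrd1; that scaling moves the median of all genes by 0.36, and the cause of the turns was not tested. The planned relations of the ratio with the other members were not run, since the sets of AF livers separated by Cyp2e1 were too small for a correlation within each. The least counted member had 779 reads in its lowest library, and the parts of depth and of replicate spread in these values were not tested.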
